A study of Homo sapiens with 12 samples.

Results

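The response to dexamethasone was compared between LNCaPabl-Abi and LNCaPabl-Enza, 2 prostate cancer cell lines whose names derive from LNCaP, an established human line. For each gene the quantity was the response of LNCaPabl-Enza minus the response of LNCaPabl-Abi, where a response is the mean log2 level with dexamethasone minus that with DMSO. It was taken from 11 of the 12 arrays of the series, leaving out Enza_Ctrl replicate 2, and repeated with all 12. The 4 groups were LNCaPabl-Abi with the solvent DMSO (Abi_Ctrl), LNCaPabl-Abi with 100 nM dexamethasone (Abi_Dex), and the same pair for LNCaPabl-Enza (Enza_Ctrl, Enza_Dex), each exposed for 24 h. Each group had 3 arrays, so 6 arrays of LNCaPabl-Abi and 5 of LNCaPabl-Enza entered the comparison. Medium with fetal calf serum is named for the growth of all cells, and the labels do not spell out Abi and Enza. Each of the 2 names stands for a single cell line.

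Dexamethasone is a synthetic steroid that binds the glucocorticoid receptor, a transcription factor encoded by NR3C1. The bound receptor enters the nucleus, attaches to short DNA elements and raises or lowers the transcription of nearby genes. In prostate epithelium many genes that androgens induce can also respond to glucocorticoids.

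No gene passed the test of the difference between the responses. limma called 0 of 17687 genes (0%) at a Benjamini-Hochberg adjusted p under 0.05, and the smallest adjusted p was 0.168, for SCNN1G. At an unadjusted p under 0.05 there were 566 genes (3.2%), of which 334 (1.89%) had the lower response in LNCaPabl-Enza and 232 (1.31%) the higher. On average 884 genes would meet that threshold if no gene differed. All 12 arrays together gave 0 called and 266 genes (1.5%) at the unadjusted threshold, with a smallest adjusted p of 0.793. The 95% interval of a gene's difference reached a median of 0.67 to either side on the log2 scale (1.06 with all 12 arrays). In a typical gene a difference smaller than that had an interval that included 0. The adjusted threshold asked for more, and even the difference of -3.47 for KLK4 was not called. All values below are deposited log2 levels or their differences, and 1 log2 unit is a doubling on the deposited scale.

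Responses were then counted in each line alone. In LNCaPabl-Abi 25 genes (0.141%) were called by limma, all of them higher with dexamethasone, and in LNCaPabl-Enza 0 were called (0%), with 530 genes (3%) at an unadjusted p under 0.05. From all 12 arrays the counts were 5 (0.0283%; KLK4, PGC, SCNN1G, SGK1 and TMPRSS2) and 0, with 700 genes (3.96%) at the unadjusted threshold in LNCaPabl-Enza. Responses of at least 1 log2 unit without overlap of the groups numbered 54 up (0.305%) and 3 down (0.017%) in LNCaPabl-Abi. In LNCaPabl-Enza they numbered 13 up (0.0735%) and 7 down (0.0396%) with 11 arrays, but 162 up (0.916%) and 209 down (1.18%) with all 12, so the inclusion of Enza_Ctrl replicate 2 turned which line had more. A count in 1 line beside a count in the other is not a test of the difference. LNCaPabl-Enza had 1 array fewer and the wider interval of a response, with a median half-width of 0.50 against 0.45.

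A rule gathered the genes with the larger response in 1 line. It asked for a response of at least 1 log2 unit without overlap of the line's own dexamethasone and DMSO arrays, and for an unadjusted p of the difference under 0.05, with a smaller or opposite response in the other line. The rule chose 32 genes (0.181% of all genes) for LNCaPabl-Abi and 5 genes (0.0283%) for LNCaPabl-Enza. This balance depended on single arrays of LNCaPabl-Enza. It was 20 against 31 with all 12 arrays, 23 against 55 without Enza_Ctrl replicate 1, 32 against 36 without Enza_Ctrl replicate 3, and 35 against 47 without both LNCaPabl-Enza arrays of replicate 3. Because the same arrays chose these genes, their values are a description. All 32 genes of LNCaPabl-Abi were higher with dexamethasone, and 22 of them were among the 25 genes called in that line. Their median response was 1.79 in that line, beside 0.48 for LNCaPabl-Enza. The LNCaPabl-Enza response was under 0.5 in size for 17 of the 32, at least 0.5 in the same direction for 15, and at least 0.5 in the opposite direction for 0. The response of LNCaPabl-Enza had the same sign in 28 of the 32. In 13 of them the Enza_Dex arrays all lay above both Enza_Ctrl arrays, an order that 7.93% of all genes showed.

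**Figure D1:**
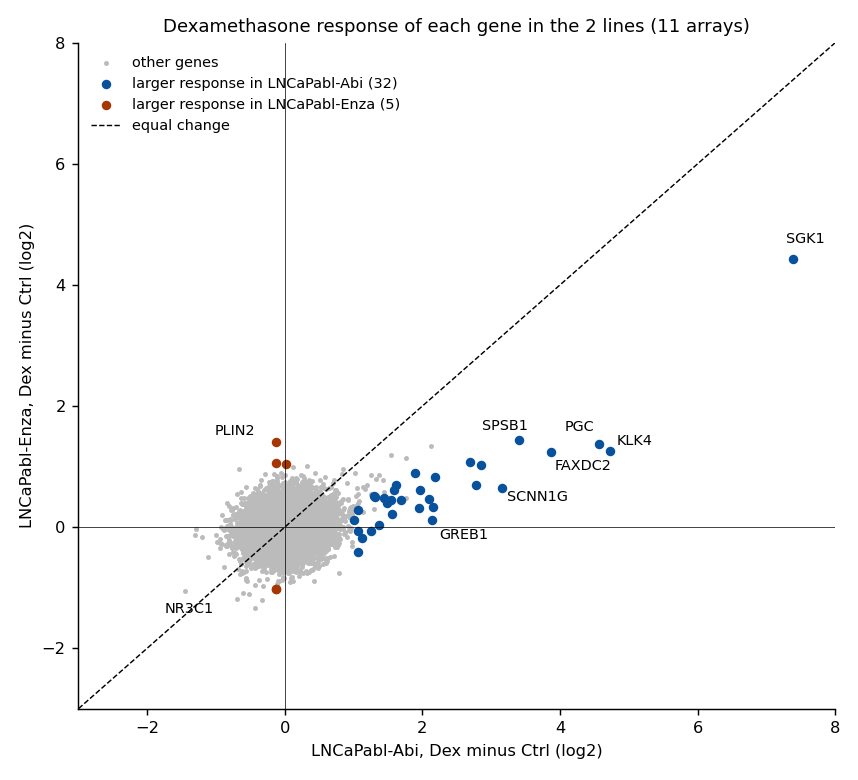
Response to dexamethasone of 17687 genes in LNCaPabl-Abi (horizontal axis, log2) and in LNCaPabl-Enza (vertical axis, log2), from 11 arrays, with the 32 and 5 genes chosen by the rule in colour and equal responses on the dashed line. The 32 blue points lie to the right of the dashed line, and SGK1 stands alone with 7.39 against 4.43.

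The promoter of SGK1 is shown because this gene had the largest response in both lines. SGK1 encodes a kinase that glucocorticoids induce and that keeps the epithelial sodium channel at the cell surface, and SCNN1G encodes the gamma subunit of that channel. The stretches below run from 250 bases before to 50 bases after an annotated start, from RefSeq (GRCh38.p14), both on the minus strand, at chr6:134177812-134178111 for SGK1 and chr19:50911346-50911645 for KLK4. The table holds 3 such windows for SGK1, 1 for each of 3 annotated starts, and the one printed was the single one with AGAACA, the letters of a steroid receptor half-site. Capitals mark AGAACA, whose first base is base 6 after this start, and TATAAA, whose first base lies 15 bases before it. Each of the other SGK1 windows held TATAAA on the opposite strand and no AGAACA. KLK4, the gene with the largest difference between the lines, held neither in its 2 windows.
SGK1: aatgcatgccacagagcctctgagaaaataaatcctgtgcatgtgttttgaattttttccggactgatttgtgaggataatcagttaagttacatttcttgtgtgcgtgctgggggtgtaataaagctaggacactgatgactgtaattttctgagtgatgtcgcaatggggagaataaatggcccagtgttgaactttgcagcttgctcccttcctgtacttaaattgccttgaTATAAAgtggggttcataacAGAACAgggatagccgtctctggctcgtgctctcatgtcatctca
KLK4: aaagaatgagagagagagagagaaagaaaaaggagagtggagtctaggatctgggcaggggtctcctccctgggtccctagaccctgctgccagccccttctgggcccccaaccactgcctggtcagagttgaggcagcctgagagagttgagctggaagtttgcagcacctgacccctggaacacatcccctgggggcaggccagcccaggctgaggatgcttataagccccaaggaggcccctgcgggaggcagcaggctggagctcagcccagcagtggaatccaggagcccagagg
Both strands were searched for these letters, and the pair of motifs do not overlap each other in the printed windows. Of the 32 genes, 21 had a promoter entry. AGAACA stood in 4 of these 21 (19.0%; IL6R, MYBPC1, SGK1 and STK39), against 14.7% of 14250 measured genes with an entry. The other motif, TATAAA, stood in 3 (14.3%; MYBPC1, PGC and SGK1), against 12.3%. Genes with several windows counted once if any held the letters. These are matches of letters in windows of 300 bases.

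SGK1 was at 6.52, 6.20 and 5.82 in Abi_Ctrl and at 13.59, 13.29 and 13.83 in Abi_Dex. The LNCaPabl-Enza arrays read 6.13 and 6.89 with DMSO (6.17 on the omitted array) and at 9.66, 9.99 and 13.20 with dexamethasone. Every treated array lay above every DMSO array in both lines, and Enza_Dex replicate 3 lay near the Abi_Dex arrays while replicates 1 and 2 lay between. The response was 7.39 ± 0.63 (SE), or 168-fold, in LNCaPabl-Abi (limma, adjusted p = 5.08e-05) and 4.43 ± 0.70, or 21.6-fold, in LNCaPabl-Enza (adjusted p = 0.269). The difference of -2.96 ± 0.95 had an adjusted p of 0.999 and a 95% interval from -4.97 to -0.94. Without Enza_Dex replicate 3, limma called the difference, at -4.08 ± 0.39 (adjusted p = 0.00122), and with both LNCaPabl-Enza arrays of replicate 3 left out it was -3.70 ± 0.41 (adjusted p = 0.0125). The response of LNCaPabl-Enza was then called too, at 3.31 ± 0.30 (adjusted p = 0.000687) and 3.69 ± 0.34 (adjusted p = 0.00162). Both settings leave out the highest Enza_Dex array of this gene, which lowers the mean and the spread of the group. These calls follow largely from that removal and are not a separate result.

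SCNN1G was at 4.16, 3.96 and 4.60 in Abi_Ctrl and at 7.10, 7.10 and 7.99 in Abi_Dex, and dexamethasone raised it by 3.15 ± 0.25 (8.88-fold; limma, adjusted p = 5.08e-05). In LNCaPabl-Enza it was at 5.09 and 5.13 with DMSO (5.01 on the omitted array) and at 5.69, 5.52 and 6.08 with dexamethasone, a response of 0.65 ± 0.28. Neither pair of groups overlapped, and all 3 Enza_Dex arrays lay below all 3 Abi_Dex arrays. The difference was -2.50 ± 0.38, with a 95% interval from -3.31 to -1.69, and -2.46 with all 12 arrays. The beta subunit gene SCNN1B had responses of 1.05 ± 0.26 and 0.64 ± 0.29, a difference of -0.41 ± 0.39 that turned to 0.54 with all 12 arrays. Of 16 measured genes of epithelial sodium transport, 12 had a difference below 0, with a median of -0.12, beside 0.00 over all genes. With all 12 arrays it was 9 of 16 and -0.11 (0.04 over all genes), and without both LNCaPabl-Enza arrays of replicate 3 it was 11 of 16 and -0.23 (-0.01). SGK1 and SCNN1G were the 2 members at an unadjusted p under 0.05 (3.2% of all genes), and 0 were called. NR3C2, which encodes the mineralocorticoid receptor, had a difference of 0.07 ± 0.30.

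The protease genes KLK4, PGC and TMPRSS2 all rose in LNCaPabl-Abi and belonged to the 32 genes. KLK4, a kallikrein protease induced by androgens, was at 5.87, 5.14 and 6.44 in Abi_Ctrl and at 9.97, 10.58 and 11.09 in Abi_Dex. The LNCaPabl-Enza arrays stood at 9.04 and 7.62 with DMSO (7.43 on the omitted array) and at 9.01, 9.52 and 10.22 with dexamethasone. The LNCaPabl-Abi groups were far apart, whereas 1 Enza_Ctrl array lay above the lowest Enza_Dex array. KLK4 rose by 4.73 ± 0.41 (26.5-fold; limma, adjusted p = 5.08e-05) in LNCaPabl-Abi and its response in LNCaPabl-Enza was 1.25 ± 0.46, a difference of -3.47 ± 0.62 (95% interval -4.79 to -2.16, adjusted p = 0.434). Its level with DMSO was 2.51 ± 0.46 higher in LNCaPabl-Enza (adjusted p = 0.0118; 0.135 with all 12 arrays), so the treated levels were closer than the responses.

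PGC, which encodes the precursor of the protease pepsin C, was at 4.36, 4.40 and 4.40 in Abi_Ctrl and at 9.66, 9.40 and 7.79 in Abi_Dex. In LNCaPabl-Enza it was at 4.99 and 4.91 with DMSO and at 5.44, 5.92 and 7.60 with dexamethasone, where replicate 3 again came close to the lowest Abi_Dex array. The difference was -3.19 ± 0.72 (95% interval -4.74 to -1.65). TMPRSS2, a membrane-bound serine protease induced by androgens, was at 11.25, 11.03 and 11.41 in Abi_Ctrl and at 13.42, 13.23 and 13.60 in Abi_Dex. Its LNCaPabl-Enza arrays were at 12.13 and 11.53 with DMSO and at 12.56, 12.64 and 12.79 with dexamethasone, without overlap, and the difference was -1.35 ± 0.30 (95% interval -1.99 to -0.72). limma's adjusted p was 0.999 for both differences. For KLK3, which encodes prostate-specific antigen, the responses were 1.76 ± 0.42 and 0.49 ± 0.47, a difference of -1.28 ± 0.63 whose 95% interval ran from -2.63 to 0.07 (-1.94 with all 12 arrays). KLK2, its neighbour in the kallikrein family, had responses of 1.76 and 1.14 and a difference of -0.62 ± 0.56, so a difference between the lines was not detectable for either.

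**Figure D2:**
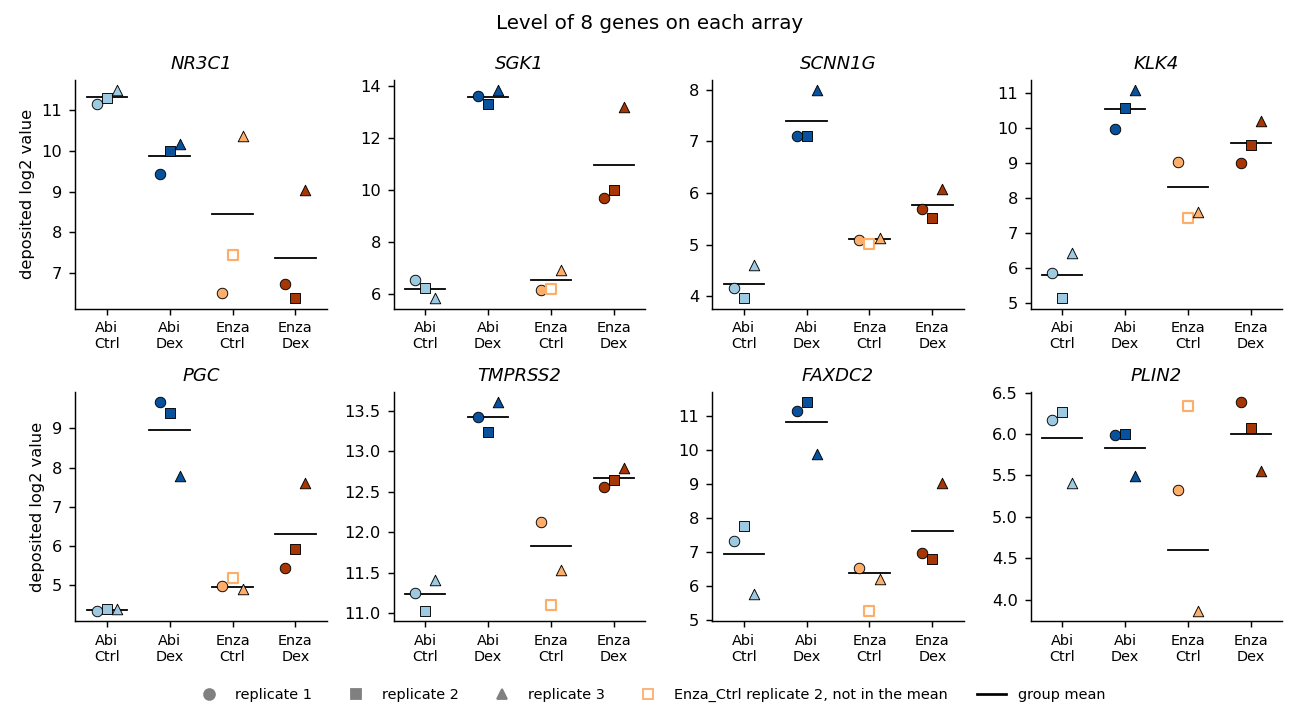
Deposited log2 level of 8 genes on each array, in 4 groups, with the marker giving the replicate number, a line the group mean, and the open square Enza_Ctrl replicate 2, which is not in the mean. For SGK1, PGC and FAXDC2 the triangle of Enza_Dex replicate 3 lies above the other Enza_Dex arrays, and for NR3C1 both LNCaPabl-Enza triangles lie above the other LNCaPabl-Enza arrays.

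Among 35 measured androgen-induced genes, 5 were in the set of 32, which held 0.181% of all genes: KLK4, PGC, TMPRSS2, MYBPC1 and RHOU. The list was chosen with earlier results of these data known, so this count is a description. MYBPC1, which encodes a myosin-binding protein, rose by 2.70 ± 0.44 in LNCaPabl-Abi (limma, adjusted p = 0.0163) and had a response of 1.08 ± 0.49 in LNCaPabl-Enza. RHOU, which encodes a small GTPase, rose by 1.89 ± 0.30 (adjusted p = 0.0163) and had a response of 0.89 ± 0.34. Over the whole list, 19 of the 35 had a difference below 0 and 16 above, while over all genes 8784 of 17687 were below 0. The median of the list was -0.07 (0.00 with all 12 arrays, -0.13 without both LNCaPabl-Enza arrays of replicate 3). At an unadjusted p under 0.05, 5 members had the lower response in LNCaPabl-Enza (1.89% of all genes) and 1 the higher (1.31%). The latter was MAF, a transcription factor gene, at 0.72, from responses of -0.27 and 0.45.

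The 41 measured glucocorticoid-induced genes had 24 differences below 0 and 17 above, while over all genes 8784 of 17687 were below 0. The median difference of the list was -0.07 (-0.11 with all 12 arrays, -0.17 without both LNCaPabl-Enza arrays of replicate 3). Its median response was 0.17 in LNCaPabl-Abi. In LNCaPabl-Enza it was 0.16 with 11 arrays, 0.37 with all 12, and 0.06 without both arrays of replicate 3, when 23 of 41 responses were above 0. SGK1, KLF15 and KLF9 were the 3 members at an unadjusted p under 0.05, all lower in LNCaPabl-Enza, as were 1.89% of all genes. KLF15, a transcription factor gene of the Krüppel-like family, was at 3.73, 3.54 and 4.07 in Abi_Ctrl and at 4.44, 5.03 and 4.62 in Abi_Dex, without overlap. Its LNCaPabl-Enza arrays stood at 4.26 and 3.98 with DMSO and at 4.03, 4.11 and 4.27 with dexamethasone, so the 2 groups overlapped, and the responses were 0.91 ± 0.20 and 0.01 ± 0.23. All group means of KLF15 but that of Abi_Dex lay below the 4.5 to 4.6 read on the background probes. KLF9, of the same family, had responses of 0.98 and 0.26, and its difference of -0.71 turned to 0.22 with all 12 arrays. TSC22D3, which encodes the anti-inflammatory protein GILZ, had a response of 1.50 ± 0.45 beside 0.39 ± 0.50, a difference of -1.12 ± 0.67.

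Other genes of the set code for proteins of varied function, and 6 more completed the 10 with the largest differences. FAXDC2, a fatty acid hydroxylase domain gene, rose by 3.87 ± 0.57 in LNCaPabl-Abi (limma, adjusted p = 0.00858) with a response of 1.24 ± 0.64 in LNCaPabl-Enza. SPSB1, an adaptor of ubiquitin ligases, rose by 3.41 ± 0.42 (adjusted p = 0.0018) beside 1.43 ± 0.47, and HTR3A, a serotonin receptor subunit gene, by 2.85 ± 0.31 (adjusted p = 0.000393) beside 1.02 ± 0.34. TUBA3D, an alpha-tubulin gene, rose by 2.77 ± 0.36 (adjusted p = 0.00278) beside 0.69 ± 0.40. CST1, a cystatin gene, rose by 2.15 ± 0.36 (adjusted p = 0.0191) beside 0.33 ± 0.40. GREB1, known as a hormone-induced gene, had responses of 2.14 ± 0.41 (adjusted p = 0.0564) and 0.11 ± 0.45, a difference of -2.03 that was -1.31 with all 12 arrays. Its Enza_Dex arrays were at 4.77, 5.90 and 7.17 against 5.73 and 5.94 with DMSO, so they lay on both sides of the DMSO arrays. TUBA3D has near-identical gene copies, so its signal may include theirs.

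With 11 arrays, genes with a small response in LNCaPabl-Enza included several regulators of transcription and signalling, and for some of them Enza_Ctrl replicate 2 set that. ETS2, a transcription factor gene, was at 8.21, 8.53 and 8.93 in Abi_Ctrl and at 10.26, 10.59 and 11.12 in Abi_Dex, and rose by 2.10 ± 0.26 (limma, adjusted p = 0.0018). In LNCaPabl-Enza it was at 9.01 and 9.11 with DMSO and at 9.47, 9.14 and 9.94 with dexamethasone, a response of 0.46 ± 0.29. The omitted array read 4.22, and the difference of -1.64 ± 0.39 became -0.03 with it. IGF1R, the gene of the insulin-like growth factor receptor, rose by 1.69 ± 0.25 (adjusted p = 0.00965) beside 0.45 ± 0.28, and its Abi_Dex arrays lay at 11.33, 11.29 and 11.30. Its LNCaPabl-Enza response was 1.15 with all 12 arrays, and the difference went from -1.24 to -0.54. STK39, a kinase gene that acts on ion cotransporters, rose by 1.54 ± 0.25 (adjusted p = 0.0163) beside 0.45 ± 0.28. STAT3, which fell outside the set because its response in LNCaPabl-Abi was 0.87 ± 0.17, had a response of 0.18 ± 0.19 in LNCaPabl-Enza. That response was 0.85 with all 12 arrays, and the difference of -0.69 became -0.02.

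IL6R and NPC1 belonged to the set with 11 arrays and changed the sign of their difference with all 12. NPC1, which moves cholesterol out of lysosomes, rose by 1.58 ± 0.20 in LNCaPabl-Abi (limma, adjusted p = 0.00222) beside 0.61 ± 0.22, a difference of -0.97 ± 0.30 that became 0.43. IL6R, the gene of the interleukin 6 receptor, rose by 1.61 ± 0.23 (adjusted p = 0.00828) beside 0.70 ± 0.26, a difference of -0.91 ± 0.35 that became 0.06. For the other 30 genes the difference stayed below 0 with all 12 arrays. It was over 1.5 times smaller in 5 of them (ETS2, GALNT2, GREB1, IGF1R and KCNMA1), over 1.5 times larger in 2 (ADGRF4 and OTULINL) and within 1.5 times in 23. The rule then chose 20 genes for LNCaPabl-Abi (0.113%), all of them among the 32, which is 62.5% of the first set and 100% of the second. ADGRF4, an adhesion receptor gene, lay just inside the threshold with a response of 1.01, and PEBP4 just outside with 0.98.

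ZDHHC14, OFD1, TMEM37 and SLC29A2 were the 4 genes of the set with a response below 0 in LNCaPabl-Enza (with all 12 arrays there were 6, with ADGRF4, CST1 and OTULINL in and SLC29A2 out). ZDHHC14, which encodes a palmitoyltransferase, was at 6.24, 5.46 and 5.59 in Abi_Ctrl and at 7.08, 6.76 and 6.64 in Abi_Dex. It was at 6.73 and 7.11 in Enza_Ctrl and at 6.43, 6.59 and 6.53 in Enza_Dex, so the groups were apart in both lines and ran in opposite directions. The responses were 1.07 ± 0.22 and -0.40 ± 0.24, a difference of -1.47 ± 0.33 (95% interval -2.17 to -0.77). Over all genes, 63 (0.356%) were higher in LNCaPabl-Abi and lower in LNCaPabl-Enza without overlap in either line, and 48 (0.271%) the reverse. The responses were -0.07 ± 0.26 for OFD1, a centriole gene, -0.19 ± 0.24 for TMEM37 and -0.07 ± 0.39 for SLC29A2, a nucleoside transporter gene, in LNCaPabl-Enza.

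**Figure D3:**
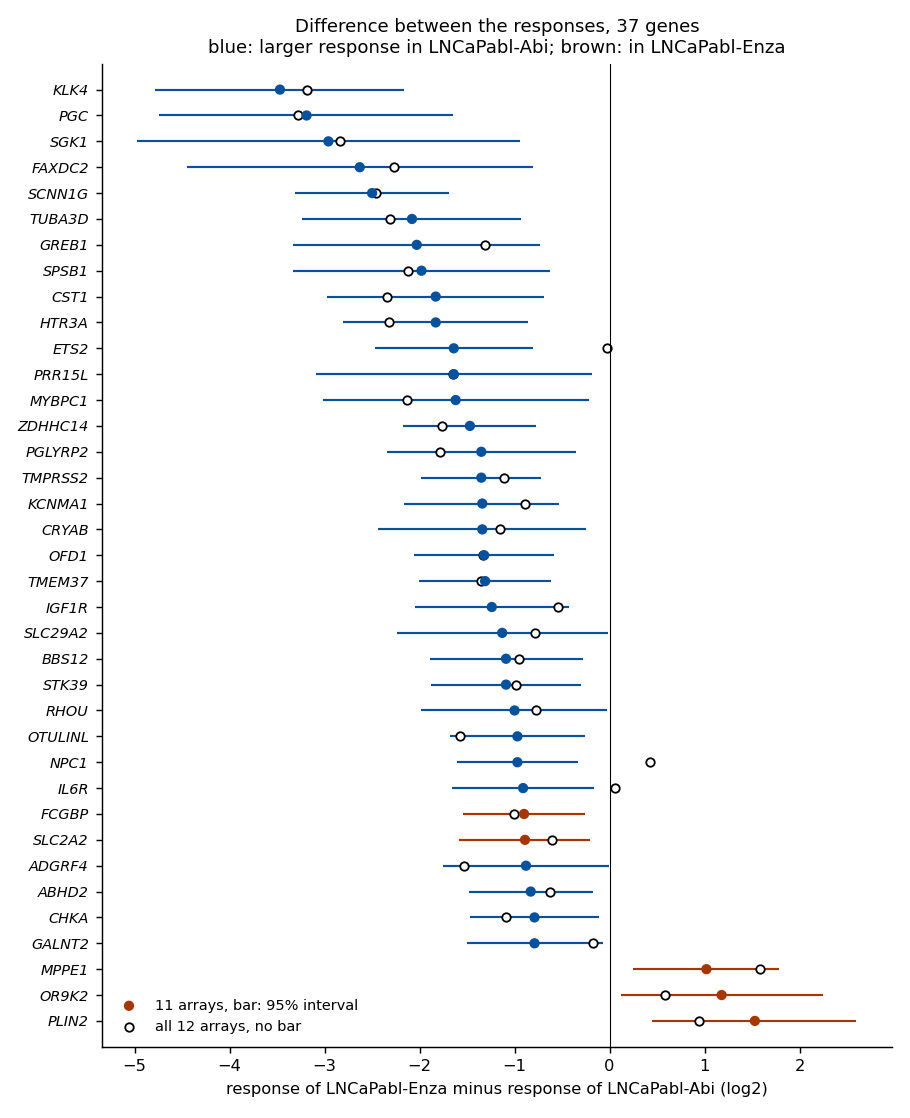
Response of LNCaPabl-Enza minus response of LNCaPabl-Abi (horizontal axis, log2) for the 32 and 5 genes chosen by the rule, with filled points and 95% intervals from 11 arrays and open points from all 12. Open points of ETS2, IL6R and NPC1 lie at -0.03, 0.06 and 0.43, away from their filled points.

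Further members of the set were PGLYRP2, BBS12, ABHD2, CHKA, PRR15L, CRYAB and GALNT2. PGLYRP2, which cleaves bacterial peptidoglycan, rose by 1.97 ± 0.31 in LNCaPabl-Abi (limma, adjusted p = 0.0144) beside a response of 0.62 ± 0.35 in LNCaPabl-Enza. BBS12, a gene of primary cilia, rose by 1.48 ± 0.25 (adjusted p = 0.0252) beside 0.40 ± 0.28. ABHD2, a hydrolase gene, rose by 1.32 ± 0.20 (adjusted p = 0.0125) beside 0.49 ± 0.23, and CHKA, the gene of choline kinase alpha, by 1.30 ± 0.21 (adjusted p = 0.0164) beside 0.51 ± 0.24. limma did not call PRR15L, CRYAB, a small heat shock protein gene, or GALNT2, a glycosyltransferase gene, in LNCaPabl-Abi, where their responses were 1.95, 1.56 and 1.07 beside 0.32, 0.21 and 0.28 in LNCaPabl-Enza. The GALNT2 difference of -0.79 was -0.17 with all 12 arrays.

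For KCNMA1 and OTULINL the level before treatment also stood apart. KCNMA1, the gene of a calcium-activated potassium channel, was 2.08 ± 0.28 lower with DMSO in LNCaPabl-Enza than in LNCaPabl-Abi (limma, adjusted p = 0.00142), and its responses were 1.37 ± 0.25 in LNCaPabl-Abi and 0.03 ± 0.28 in LNCaPabl-Enza. OTULINL had a level 0.88 ± 0.25 higher with DMSO in LNCaPabl-Enza (adjusted p = 0.127) and responses of 1.45 ± 0.22 and 0.48 ± 0.25. Across the 32 genes, 20 had the higher DMSO mean in LNCaPabl-Enza, beside 49.6% of all genes, and limma called 3 of the 32 between the untreated lines (KLK4, ZDHHC14 and KCNMA1) against 228 genes (1.29%) in all. KCNMA1 alone was called with all 12 arrays (adjusted p = 0.029). The DMSO arrays enter this comparison and the difference between the responses with opposite signs, so the comparisons share their error.

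Only 5 genes met the rule for LNCaPabl-Enza, and limma called none of them in that line. PLIN2, which coats lipid droplets, was at 5.32 and 3.87 in Enza_Ctrl and at 6.38, 6.07 and 5.55 in Enza_Dex, without overlap, while the omitted array read 6.34. In LNCaPabl-Abi it was at 6.17, 6.26 and 5.41 with DMSO and at 5.83 ± 0.30 (SD, n = 3) with dexamethasone, and these groups overlapped. The responses were 1.40 ± 0.38 in LNCaPabl-Enza and -0.12 ± 0.34 in LNCaPabl-Abi, a difference of 1.53 ± 0.51 (limma, adjusted p = 0.999) and 0.94 with all 12 arrays. MPPE1, a phosphoesterase gene, and OR9K2, an olfactory receptor gene, had responses of 1.04 ± 0.27 and 1.06 ± 0.37 in LNCaPabl-Enza, and their differences of 1.02 and 1.18 were 1.58 and 0.58 with all 12 arrays. FCGBP, which encodes a mucus protein, and SLC2A2, a glucose transporter gene, had responses of -1.02 ± 0.22 and -1.02 ± 0.24 there. Both were among the dimmest 25% of all genes (percentiles 15.8 and 17.7 by mean level). Their group means with 11 arrays lay below the 4.5 to 4.6 read on the background probes. SLC2A2 was the member nearest the threshold, and ANK2 lay just outside with 0.99. With all 12 arrays the rule chose 31 genes (0.175%), 8 higher and 23 lower, of which 2 were shared, 40% of the first set and 6.45% of the second. Of the 31 genes, 14 were among the dimmest 25% of all genes.

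Ranked by the p of the difference alone, the 12 genes lowest in LNCaPabl-Enza were SCNN1G, KLK4, LINC00663, TMPRSS2, ZDHHC14, PGC, CDHR5, ALLC, ETS2, RIPPLY2, TMEM37 and DIRC3. In 7 of them the response was above 0 in LNCaPabl-Abi and below 0 in LNCaPabl-Enza, and in 5 it was above 0 in both lines. The DMSO mean was higher in LNCaPabl-Enza in 11 of them, beside 49.6% of all genes. The DMSO arrays enter the ranked difference, so the ranking itself favours such signs and these counts are a description. CDHR5, a cadherin gene of the epithelial brush border, was at 5.21, 5.22 and 5.24 in Abi_Ctrl and at 5.58, 5.58 and 5.48 in Abi_Dex. It was at 6.42 and 6.22 in Enza_Ctrl (5.35 on the omitted array) and at 5.48, 5.78 and 5.42 in Enza_Dex. The treated arrays of both lines lay together, and the lines differed with DMSO, by 1.10 ± 0.19 (limma, adjusted p = 0.00681). That call was lost with all 12 arrays, at 0.78 (adjusted p = 0.406). LINC00663, a long non-coding RNA gene, had responses of 0.79 ± 0.22 and -0.75 ± 0.24, a difference of -1.54 ± 0.33 (adjusted p = 0.999).

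The 12 genes with the smallest p in the other direction were TMA16, C1orf185, PLEK2, NXPE1, SCAND3, NAB2, ZBTB34, PBLD, SESTD1, EPX, NEBL and ZNF287, each with an adjusted p of 0.999 by limma. All 12 had a response below 0 in LNCaPabl-Abi and above 0 in LNCaPabl-Enza. The DMSO mean was higher in LNCaPabl-Enza in 0 of them, beside 49.6% of all genes, and here too the ranking favours such signs. Their differences were 0.85 to 1.23, and 0 met the rule for LNCaPabl-Enza. NXPE1 was at 8.33, 8.36 and 8.22 in Abi_Ctrl and at 7.43, 7.52 and 7.18 in Abi_Dex, a response of -0.93 ± 0.18 (adjusted p = 0.0622). Its LNCaPabl-Enza arrays had a mean of 6.79 with DMSO and were at 6.68, 6.94 and 6.77 with dexamethasone. They overlapped and lay below all LNCaPabl-Abi arrays, with a response of 0.01 ± 0.20. NAB2, a corepressor of the EGR transcription factors, had responses of -0.66 ± 0.18 and 0.27 ± 0.20.

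Cell division genes gave the most one-sided list. All 32 measured members had a response below 0 in LNCaPabl-Abi, with a median of -0.51, and 30 of 32 had one below 0 in LNCaPabl-Enza, with a median of -0.14, beside a median of 0.00 over all genes in each line. The difference was above 0 in 30 of the 32 (93.8%, beside 50.3% of all genes), with a median of 0.30. limma called 0 members in any of these comparisons, and 0 had an unadjusted p of the difference under 0.05. NDC80, a kinetochore gene, had the smallest p, with responses of -0.85 ± 0.23 and -0.14 ± 0.26 and a difference of 0.71 ± 0.35 (1.42 with all 12 arrays). MKI67, the gene of the Ki-67 proliferation antigen, was at 12.63, 12.55 and 12.79 in Abi_Ctrl and at 12.18, 11.93 and 12.26 in Abi_Dex, without overlap. In LNCaPabl-Enza it was at 12.25 and 12.95 with DMSO and at 12.53, 12.18 and 12.85 with dexamethasone, with overlap, and the difference was 0.45 ± 0.33 (0.96 with all 12 arrays). Without Enza_Ctrl replicate 1 the difference was 0.10 for MKI67 and 0.34 for NDC80, and without Enza_Ctrl replicate 3 it was 0.80 and 1.08. Without both LNCaPabl-Enza arrays of replicate 3, 20 of the 32 list members had a response below 0 in LNCaPabl-Enza, with a median of -0.06. Genes of this list share the cell cycle and are not independent of each other. In bulk RNA, fewer dividing cells and less of these transcripts per cell cannot be told apart.

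DNA replication genes leaned the same way, with 32 of 40 differences above 0 (80%) and a median of 0.22, from median responses of -0.35 and -0.13. MCM10 and ORC6, which act in loading the replication machinery, were the 2 members at an unadjusted p under 0.05 (3.2% of all genes). Their differences were 0.80 ± 0.37 and 0.83 ± 0.38. With the arrays normalized anew to a common distribution, the medians were 0.27 for cell division and 0.18 for DNA replication, and without both LNCaPabl-Enza arrays of replicate 3 they were 0.36 and 0.20. Over all 12 arrays they were 0.90 and 0.79, and the response of LNCaPabl-Enza turned positive in 27 of the 32 cell division genes. The omitted array had a mean level of 10.61 over the cell division genes, below the range of 11.25 to 12.30 on the other arrays.

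**Figure D4:**
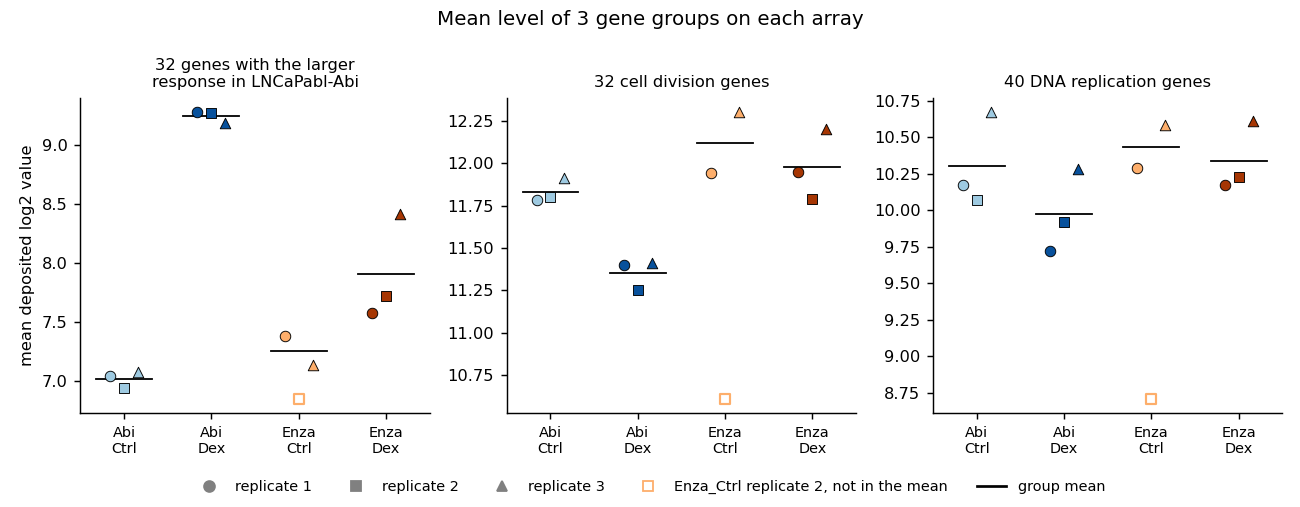
Mean deposited log2 level on each array of the 32 genes with the larger response in LNCaPabl-Abi, of 32 cell division genes and of 40 DNA replication genes, with the marker giving the replicate number, a line the group mean, and the open square the omitted array. In the first panel Enza_Dex lies at 7.58, 7.72 and 8.42 against 9.19 to 9.28 in Abi_Dex, and in the cell division panel Abi_Dex lies at 11.25 to 11.41, below every other array but the omitted one.

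Negative feedback genes of MAP kinase signalling and immediate early genes had 21 of 29 differences below 0, with a median of -0.15 (-0.09 with all 12 arrays). DUSP4, a phosphatase gene that limits MAP kinases, was called in LNCaPabl-Abi (1.42 ± 0.26; limma, adjusted p = 0.0449) and had a response of 0.77 ± 0.29 in LNCaPabl-Enza, a difference of -0.65 ± 0.39. Luminal prostate epithelial markers had a median difference of -0.17 from 16 members, which turned to 0.03 with all 12 arrays. Ephrins and Eph receptors, which mediate contact signalling between cells, had 13 of 19 differences below 0 and a median of -0.21 (-0.20 with all 12 arrays). Metallothioneins and zinc transporters had 13 of 17 differences above 0, with a median of 0.11 (0.36 with all 12 arrays). Unfolded protein response genes had 16 of 23 below 0 with 11 arrays (median -0.08, and -0.21 without both LNCaPabl-Enza arrays of replicate 3) and 7 of 23 with all 12. Members of these lists called in the difference between the responses numbered 0. Over all genes, 8784 of 17687 differences were below 0 with 11 arrays.

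**Figure D5:**
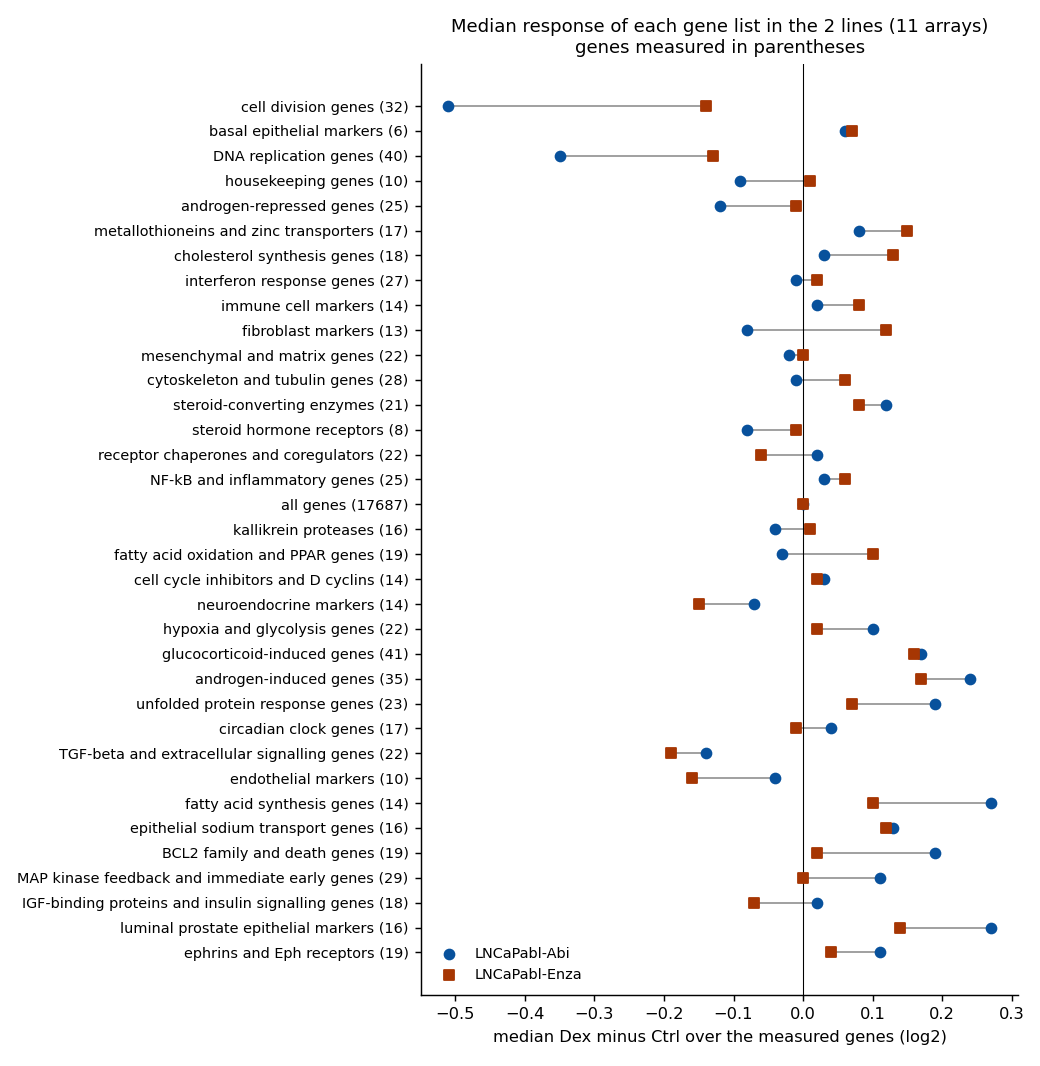
Median response to dexamethasone (horizontal axis, log2) of each of 34 gene lists and of all genes in LNCaPabl-Abi (circles) and LNCaPabl-Enza (squares), from 11 arrays, ordered by the median difference. Cell division and DNA replication genes have the widest gaps, at -0.51 against -0.14 and -0.35 against -0.13.

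NR3C1 itself differed in level among the LNCaPabl-Enza arrays. It was at 11.14, 11.30 and 11.49 in Abi_Ctrl and at 9.44, 9.99 and 10.16 in Abi_Dex. In LNCaPabl-Enza it was at 6.51 and 10.37 with DMSO and at 6.72, 6.38 and 9.03 with dexamethasone, where both arrays of replicate 3 were the high ones. Each LNCaPabl-Enza array lay below every LNCaPabl-Abi array of the same treatment. Enza_Ctrl minus Abi_Ctrl was -2.87 ± 0.84, which limma did not call (adjusted p = 0.14), and -3.20 with all 12 arrays. The responses were -1.45 ± 0.75 and -1.06 ± 0.84, and the difference of 0.39 ± 1.12 had a 95% interval from -2.01 to 2.78, so no difference was detectable at this spread. It turned to -1.54 without Enza_Ctrl replicate 1 and to -0.44 without Enza_Dex replicate 3, and it was 2.31 without Enza_Ctrl replicate 3.

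The 32 genes stood higher on Enza_Dex replicate 3 but not on Enza_Ctrl replicate 3, where their mean level was 7.14 against 7.38 on Enza_Ctrl replicate 1. Their mean level was 7.58 and 7.72 on Enza_Dex replicates 1 and 2 and 8.42 on replicate 3, against 9.28, 9.27 and 9.19 in Abi_Dex. Enza_Dex replicate 3 was the highest of its group in 26 of the 32 genes, beside 36.3% of all genes. It was at or above the lowest Abi_Dex array in 6 of the 32, replicate 1 in 1 and replicate 2 in 0. The part of NR3C1 in the response of these genes was not tested. With both LNCaPabl-Enza arrays of replicate 3 left out, the difference was further below 0 in 29 of the 32 (52.8% of all genes), and its median went from -1.35 to -1.60. This shift follows largely from the levels of those arrays given above and is not a separate result.

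Array and marker values bore on these results as follows. Enza_Ctrl replicate 2 had a median Pearson r of 0.855 with the other arrays, which had medians of 0.986 to 0.990 among themselves, and it read 5.5 on the background probes against 4.5 to 4.6. The residual SD of a gene had a median of 0.26 without it and 0.43 with it. The labels name prostate epithelial cells, and luminal prostate markers had a median percentile of 92.2 among all genes by mean level. The medians were 20.6 to 31.8 for basal, neuroendocrine, mesenchymal, fibroblast, immune and endothelial lists, beside 95.4 for housekeeping genes, a rough check because probes differ in brightness. Of the 10 endothelial markers 9 had a difference below 0, with a median of -0.10, and their mean level was 4.58 to 5.12 on every array.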

How the data were processed

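Total RNA was measured on 12 single-colour Affymetrix arrays. For each transcript cluster the authors deposited a log2 level. Per the submitters' processing notes, these came from Expression Console (Affymetrix) with RMA, and limma was used; no version is named. Levels between 1.66 and 18.6 are a wide range for RMA, so fold changes hold on the deposited scale only. Groups and replicate numbers came from the sample titles. The labels do not say whether replicates were separate cultures, and p-values then reflect only how far these arrays spread, which may be technical.

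Of 24351 rows, 17709 had 1 gene symbol in the platform annotation, 6642 had none and 0 had several. The brightest row was kept for 20 symbols with several rows, which left 17687 genes. Some list genes are not analysed here. One fit of 4 group means (limma 3.58.1 in R 4.3.3, statmod 1.5.0, lmFit and eBayes) gave every comparison, with Benjamini-Hochberg adjustment over all genes and calls at an adjusted p under 0.05. Enza_Ctrl had 2 arrays in the fit of 11 arrays. The script was tested on simulated data. No pair of arrays was identical (highest r 0.996).

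The main fit used no pairing of same-numbered arrays. Correlations of their deviations from the group means of all 12 arrays were 0.14, 0.08 and 0.30 in LNCaPabl-Abi. In LNCaPabl-Enza they were 0.01, 0.00 and 0.08. There the group mean included Enza_Ctrl replicate 2, so these values cannot decide whether the arrays paired. The members and the 34 gene lists were chosen with earlier results of these data known. Genes named by rule were the 12 with the smallest p of the difference in each direction, the 10 with the largest difference among those with the larger response in each line, the 2 smallest p of each list, and NR3C1, NR3C2, SGK1, TSC22D3, SCNN1G, SCNN1B, KLK2, KLK3, KLK4, TMPRSS2, PGC and MKI67. The 17 genes of the set of 32 outside this rule, and MAF, KLF9, PEBP4 and ANK2, were named after their values were seen. Alternatives were the array set, each array left out, a replicate block, array weights, new quantile normalization, trended and robust eBayes, the mean over a gene's rows, and the dimmest 25% of genes left out.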

Additional observations from a re-analysis of the deposited data

How the results depend on the processing

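The number of arrays limits these results. The differences of 118 named genes, 101 of them named by rule and 17 other members of the set of 32, were recomputed under 20 settings. Of 2342 values, 2307 kept their direction and their side of the threshold. With 11 arrays 0 differences were called, and the genes were mostly chosen by these same differences, so this count is no measure of stability. With all 12 arrays, limma called 5 genes in LNCaPabl-Abi and 47 between the untreated lines, and the rule chose 20 genes for LNCaPabl-Abi and 31 for LNCaPabl-Enza. A replicate block on the 12 arrays gave 4, 64, 20 and 34. The block on 11 arrays gave 39 genes in LNCaPabl-Abi and 1 in the difference, SCNN1G at -2.36 ± 0.28 (limma, adjusted p = 0.0213), and the samples share only a number. With both LNCaPabl-Enza arrays of replicate 3 left out there was 1 gene in the difference and 1 in LNCaPabl-Enza, SGK1 in each. This setting leaves out the highest Enza_Dex array of SGK1, and the rule then chose 47 genes for LNCaPabl-Enza. Array weights over 12 arrays gave 3 there, 0 of them among the 5 genes of the 11 arrays, and leaving out the dimmest 25% of genes gave 3, all 3 among the 5. Leaving out each array in turn gave 0 to 1 calls in the difference, 12 to 29 in LNCaPabl-Abi, 0 to 1 in LNCaPabl-Enza and 58 to 242 between the untreated lines. By the rule it gave 23 to 68 genes for LNCaPabl-Abi, with 68, 61 and 56 without Abi_Ctrl replicate 3, Abi_Ctrl replicate 1 and Abi_Dex replicate 3. For LNCaPabl-Enza it gave 4 to 55, with 55, 36, 16 and 10 without Enza_Ctrl replicate 1, Enza_Ctrl replicate 3, Enza_Dex replicate 3 and Enza_Dex replicate 1. The fewest calls came without Abi_Dex replicate 1 (12 in LNCaPabl-Abi) and without Enza_Ctrl replicate 1 (58 between the untreated lines). A group of 2 arrays overlaps less often, and the cause of these shifts was not tested.

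With all 12 arrays, with or without the block, the difference turned to 0.55 for BCL2L1, 0.26 for CDKN1A, 0.84 for CRELD2, -0.13 for ESR2, -0.19 for IFIT3, 0.06 for IL6R, 0.43 for NPC1, -0.31 for NR1D2, -0.12 for NR3C2, 0.54 for SCNN1B, -0.60 for SPRED3, 0.18 for STUB1 and -0.46 for TGFB1. It turned to -0.06 for POSTN with both LNCaPabl-Enza arrays of replicate 3 left out. Leaving out 1 array gave -1.54 to 2.31 for NR3C1 and -0.08 to 0.22 for NR3C2.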

Other observations

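Several other lists gave smaller medians of the difference between the responses, with 0 members called by limma in each. Over all genes, 8784 of 17687 differences were below 0 with 11 arrays. Apoptosis genes of the BCL2 family had 13 of 19 differences below 0 (median -0.13). HRK and BCL2L1 were the 2 members at an unadjusted p under 0.05 (3.2% of all genes). HRK, a pro-death member, had responses of 0.49 ± 0.21 in LNCaPabl-Abi and -0.45 ± 0.23 in LNCaPabl-Enza. BCL2L1, a survival member, had responses of 0.77 ± 0.23 and -0.17 ± 0.26. With all 12 arrays the list median turned to 0.26.

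Androgen-repressed genes had 17 of 25 differences above 0 (median 0.12; 0.26 with all 12 arrays), from median responses of -0.12 and -0.01. Fatty acid synthesis genes had 10 of 14 below 0 (median -0.10; 0.02 with all 12 arrays), and circadian clock genes 12 of 17 (median -0.08; 0.28 with all 12 arrays). Without both LNCaPabl-Enza arrays of replicate 3 the medians were 0.06, -0.21 and -0.11 in the same order. TNFAIP2, an inflammatory response gene, had a mean of 5.81 in Enza_Ctrl and at 6.53, 6.54 and 6.54 in Enza_Dex. Its responses were -0.11 ± 0.20 in LNCaPabl-Abi and 0.73 ± 0.22 in LNCaPabl-Enza, but the omitted Enza_Ctrl array read 7.56 and the difference of 0.84 ± 0.30 was 0.26 with it. IGFBP5, which binds insulin-like growth factors, had responses of -0.56 ± 0.38 and 0.66 ± 0.43, a difference of 1.22 ± 0.58 (95% interval -0.01 to 2.45).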
